A study of Mus musculus with 22 samples.

Results

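Intercalated cells are the acid-base regulating cells of the kidney collecting duct, and 10 genes used as their markers were followed here in a cell line that models the other main cell of that duct, the principal cell. The markers were the transcription factor gene Foxi1, the V-ATPase subunit genes Atp6v1b1, Atp6v0a4, Atp6v0d2 and Atp6v1c2, the carbonic anhydrase genes Car2, Car12 and Car15, the receptor gene Kit and the ammonia channel gene Rhcg. They were matched by symbol, and all 10 were found among the 54514 gene entries of the expression table. The cells were mpkCCD (mpkCCDc11 secondary clone 38), an immortalised mouse cortical collecting duct line grown on permeable supports, and 22 RNA-seq libraries fell into 10 groups. Wild-type (WT) cells were unsorted and were either left without dDAVP or given dDAVP (desmopressin, which activates the V2 vasopressin receptor), in 3 libraries per group. The reporter clones C1, C11, C43 and C50, each a single GFP reporter line, all received dDAVP. Their cells were sorted by GFP, which gave 2 GFP-negative and 2 GFP-positive libraries per clone. The labels do not name the promoter that drives GFP; the series title places the reporter in a study of how aquaporin-2 (Aqp2) expression varies from cell to cell. They list 0.1 and 1 nM dDAVP and 24 or 48 hours for the series without assigning a dose or a time to a library. They also do not say whether replicates came from separate cultures, so p-values measure only the spread between these libraries.

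Type A intercalated cells secrete acid: carbonic anhydrase makes protons and bicarbonate inside the cell, an apical V-ATPase pumps the protons into the tubule, and an anion exchanger returns the bicarbonate to the blood. The V-ATPase is built from a membrane sector and a catalytic sector, and several of its subunits exist both as a form present in most cells and as a form enriched in intercalated cells. Foxi1 is the forkhead factor that intercalated cell differentiation requires, and Atp6v1b1 and Atp6v0a4 are among its known targets. Principal cells, in contrast, are defined by Aqp2, the water channel controlled by vasopressin.

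Expression values are TPM, which correct for transcript length and sum to the same total in every library, so levels of different genes can be set side by side. TPM keep no sequencing depth, which is therefore unknown. Between 12293 and 14341 genes reached 1 TPM per library, and between 17177 and 31292 genes were above 0. Ribosomal protein genes took 8.32% of the TPM in GFP-negative replicate 1 of clone C50 and 3.85% to 6.12% in the other libraries, so values without that library are given where leaving it out changes a marker's call. Of 12 principal cell genes, 6 had a mean of at least 1 TPM in all 10 groups, Aqp2 and the vasopressin receptor gene Avpr2 among them. GFP itself was at 1065 TPM or more in every GFP-positive library and at 17.6 TPM or less in every GFP-negative library. In these bulk libraries, fewer cells of a type and less RNA per cell cannot be told apart.

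With expression taken as a group mean of at least 1 TPM, the markers fell into 3 classes. Atp6v1b1, Atp6v0a4, Car2, Car12 and Car15 were expressed in all 10 groups. Foxi1, Kit, Atp6v0d2 and Atp6v1c2 were not expressed in any group. Rhcg passed in 5 groups, which were both WT groups, both fractions of clone C50 and the GFP-positive fraction of clone C11. The GFP-negative fraction of C50 was at the limit, with Rhcg at 0.55 and 1.48 TPM and a mean of 1.02 TPM, and it fell under 1 TPM without replicate 2. Car2 had the highest group means of the list, from 184 ± 19.1 TPM (SD, n = 2) in the GFP-negative fraction of clone C1 to 485 ± 62.5 TPM (SD, n = 2) in the GFP-positive fraction of clone C43.

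**Figure D1:**
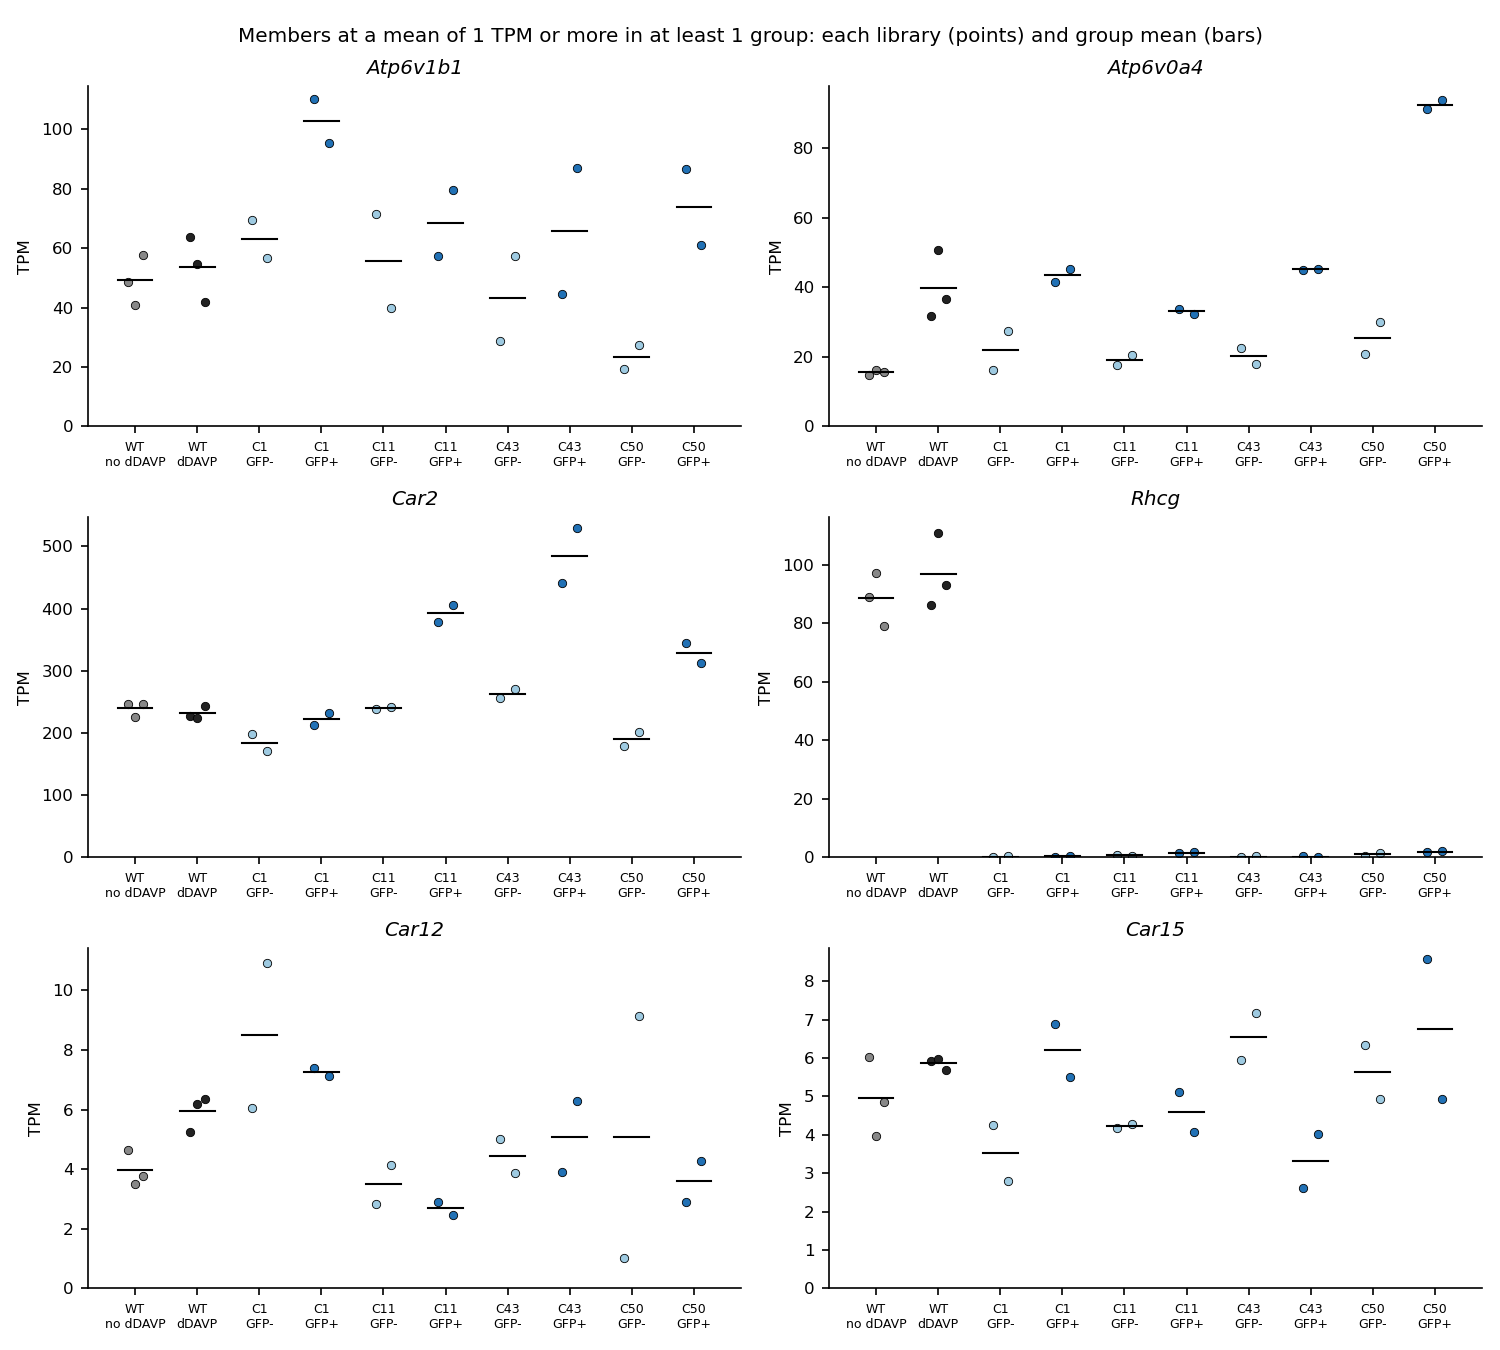
TPM (vertical axes, linear, starting at 0) of the 6 markers expressed in at least 1 group, by sample group (horizontal axes). Points are libraries and bars are group means. Atp6v0a4 and Car2 sit higher in the GFP-positive than in the GFP-negative libraries of each clone, and Rhcg is at 79.1 TPM or more in the WT libraries and at 2.04 TPM or less in the clone libraries.

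Atp6v0a4 encodes a4, the intercalated cell form of the membrane-sector a subunit. In WT cells without dDAVP its libraries were at 14.7, 16.1 and 15.7 TPM, and with dDAVP at 31.6, 50.7 and 36.7 TPM. Every dDAVP library lay above every library without dDAVP, as for 7.12% of the genes tested, while 35.8% did not overlap in either direction. The means were 15.5 ± 0.713 and 39.7 ± 9.87 TPM (SD, n = 3 each), a 2.56-fold difference and a log2 difference of 1.28 (SE 0.17) on the scale of log2(TPM + 1). In limma's test with Benjamini-Hochberg adjustment over 13494 genes, the adjusted p was 0.00704. Atp6v0a4 was the only marker of 6 tested that passed an adjusted p of 0.05 in this comparison, where 8.88% of all genes passed and 2.37% passed as higher.

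In clone C1, Atp6v0a4 was at 16.2 and 27.5 TPM in the GFP-negative libraries and at 41.6 and 45.2 TPM in the GFP-positive libraries. In clone C11 the values were 17.6 and 20.5 TPM against 33.8 and 32.2 TPM, and in clone C43 they were 22.4 and 17.8 TPM against 44.9 and 45.4 TPM. Clone C50 gave 20.9 and 30.0 TPM against 91.1 and 93.9 TPM. The fractions did not overlap within any clone, nor over all 8 libraries of each fraction, where the negative libraries had a median of 20.7 TPM (16.2 to 30.0) and the positive libraries a median of 45.0 TPM (32.2 to 93.9). Such a separation of all 8 against 8 libraries was found for 5.98% of the genes tested, in either direction. Pooled over clones, with the clone as a covariate, the log2 difference was 1.19 (SE 0.15; limma, adjusted p = 2.5e-05). Here 3 of 5 markers tested passed, all higher in the GFP-positive fraction, against 35.3% of all genes in either direction and 12.1% as higher. The latter share depends on the scaling: 1582 genes passed as higher, 2382 under median-ratio scaling and 2560 under quantile normalisation.

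Within single clones, Atp6v0a4 differed by 1.84 on the log2 scale in C50 (limma, adjusted p = 0.000194), by 1.13 in C43 (adjusted p = 0.00603) and by 1.00 in C1 (adjusted p = 0.0206). The difference of 0.76 in C11 missed the threshold (adjusted p = 0.0645) and passed in 7 of 25 alternatives: under median-ratio scaling (0.91, adjusted p = 0.0110), quantile normalisation and a covariate for detected genes, and without any 1 of the GFP-negative libraries of C1 (adjusted p = 0.0281 for each) and C50 (0.0230 and 0.0217). Clone C50 had the largest of the 4 differences, but the test of whether the difference varies between clones did not pass (limma interaction, adjusted p = 0.334). In that test 0 of 5 markers passed, against 0.869% of all genes. Without GFP-negative replicate 2 of C50 that interaction passed, with an adjusted p of 0.0283. In C1 the call was lost without GFP-negative replicate 1 (0.64, adjusted p = 0.185), and also without GFP-positive replicate 1 (adjusted p = 0.103) and without GFP-positive replicate 2 (adjusted p = 0.140). In C43 it was lost without GFP-negative replicate 2 (0.98, adjusted p = 0.0593).

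Atp6v1b1 encodes B1, the intercalated cell form of the catalytic-sector B subunit. Its WT libraries were at 48.7, 40.8 and 57.9 TPM without dDAVP and at 63.8, 54.8 and 42.0 TPM with dDAVP. The groups overlapped, and the log2 difference of 0.12 had a 95% interval from -0.30 to 0.53 (limma, adjusted p = 0.679). In clone C1 the GFP-negative libraries were at 69.5 and 56.6 TPM and the GFP-positive libraries at 110.1 and 95.5 TPM. Clone C50 also separated, with 19.4 and 27.4 TPM against 86.8 and 61.0 TPM. The fractions of the other clones overlapped: C11 gave 71.6 and 39.8 TPM against 57.4 and 79.5 TPM, and C43 gave 28.9 and 57.5 TPM against 44.6 and 86.9 TPM. In each of these groups the higher value came from the library with fewer detected genes. In C43 these libraries had 19002 and 19556 detected genes, against 30855 and 29973 in the others. The GFP-negative fraction of C50 went the other way, with 17677 detected genes at 19.4 TPM and 30045 at 27.4 TPM. This relation was not tested.

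Pooled over clones, Atp6v1b1 was higher in the GFP-positive fraction by 0.81 on the log2 scale (SE 0.22; limma, adjusted p = 0.00899), with means of 46.3 ± 20.1 and 77.7 ± 21.8 TPM (SD, n = 8 each). Clone C50 was the only clone in which it passed on its own (1.62, limma adjusted p = 0.0120). Without C50 the pooled difference was 0.54 and no longer passed (adjusted p = 0.0587). Within C50 the call was lost without GFP-negative replicate 1, the library with the high ribosomal protein share (1.38, adjusted p = 0.0654), and without GFP-positive replicate 1 (1.37, adjusted p = 0.0981). The interaction of fraction and clone did not pass for Atp6v1b1 (limma, adjusted p = 0.525).

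**Figure D2:**
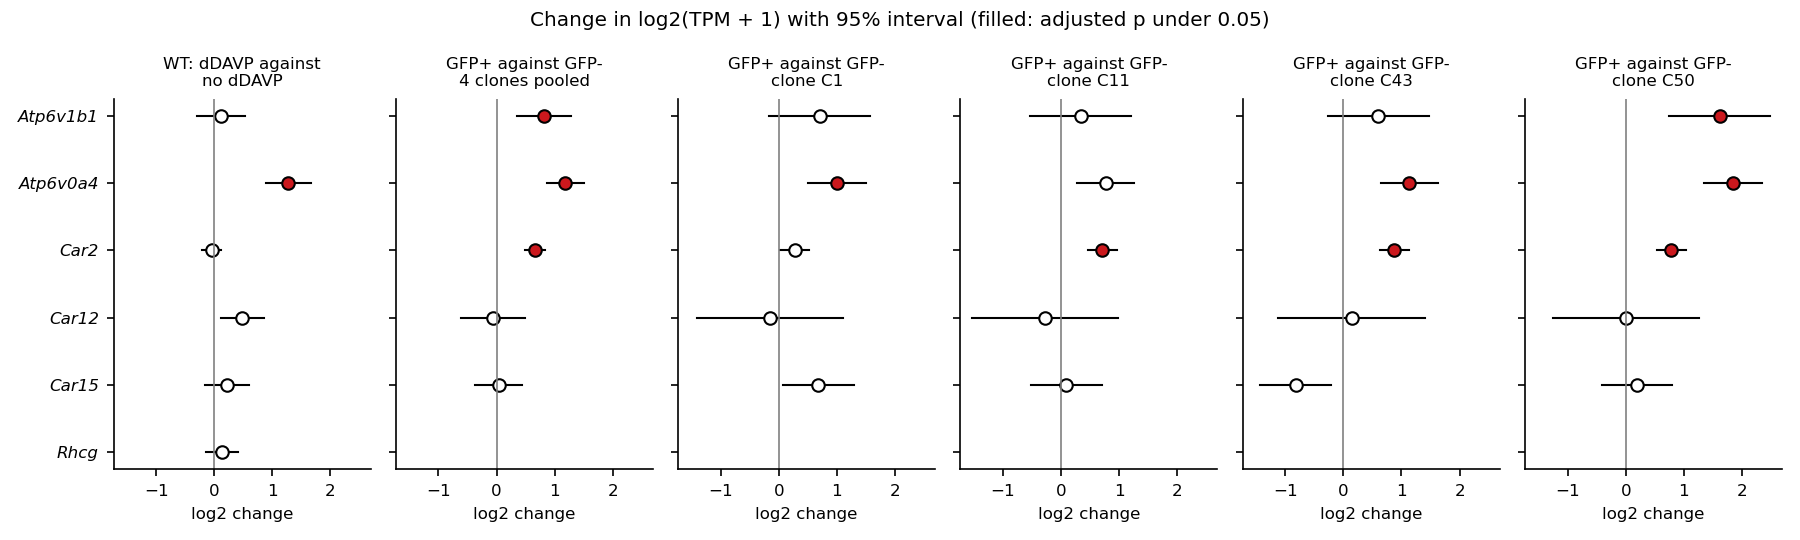
Difference in mean log2(TPM + 1) (horizontal axes) for the markers tested (vertical axis), with dDAVP against no dDAVP in WT cells and GFP-positive against GFP-negative over all 4 clones and within each clone. Lines are 95% intervals and filled circles passed a limma adjusted p of 0.05. Atp6v0a4 is filled in 5 of 6 panels, at 1.28 for dDAVP and 1.19 for the pooled fractions.

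Atp6v0a4 and Atp6v1b1 were both higher in the GFP-positive fraction, so their promoters are shown, together with that of Rhcg, the marker that separated WT cells from clones. Car2 was also higher in that fraction but had no entry in the RefSeq table used. Each line gives the 250 bases before the RefSeq gene start on the gene's own strand, 5′ to 3′ (build GRCm38.p6). Capitals mark the forkhead core TGTTTAC.
Atp6v1b1 (chr6:83742767-83743016, plus strand): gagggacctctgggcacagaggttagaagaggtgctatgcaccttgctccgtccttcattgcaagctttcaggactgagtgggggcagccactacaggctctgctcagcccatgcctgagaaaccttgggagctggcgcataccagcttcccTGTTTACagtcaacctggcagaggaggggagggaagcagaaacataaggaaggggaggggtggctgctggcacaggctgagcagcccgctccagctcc
Atp6v0a4 (chr6:38124587-38124836, minus strand): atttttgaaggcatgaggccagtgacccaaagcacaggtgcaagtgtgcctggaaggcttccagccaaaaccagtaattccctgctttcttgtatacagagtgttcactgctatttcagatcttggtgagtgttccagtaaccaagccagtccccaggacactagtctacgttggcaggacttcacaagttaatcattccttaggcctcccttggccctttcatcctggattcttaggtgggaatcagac
Rhcg (chr7:79617658-79617907, minus strand): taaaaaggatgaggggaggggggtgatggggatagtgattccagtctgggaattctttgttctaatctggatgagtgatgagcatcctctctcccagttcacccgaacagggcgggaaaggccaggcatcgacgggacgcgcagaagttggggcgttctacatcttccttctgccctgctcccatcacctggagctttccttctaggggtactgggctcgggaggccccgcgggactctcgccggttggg
The letters TGTTTAC, searched on both strands, occurred once among the promoters of the 8 markers with an entry in the RefSeq table, on the gene's strand of Atp6v1b1 with the first base at position -98 (counting back from the start, -1 being the base before it). They occurred in 3.17% of 32851 promoter windows of the same length. The palindromic cAMP response element TGACGTCA was in none of the 8 and in 1.55% of all windows. Its core TGACG, which lies within the palindrome, was found among the 8 only in Car15 and in 17.8% of all windows. A match is a description of these letters and does not show binding.

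The a subunit can also be encoded by Atp6v0a1, Atp6v0a2 and Tcirg1, and the B subunit by Atp6v1b2, so the share of the intercalated cell form among all forms was computed per library. This share does not depend on how a library is scaled. The a4 share was 9.66 ± 0.876% in WT cells without dDAVP and 23.3 ± 2.71% with dDAVP (SD, n = 3 each), with no overlap between the groups. A two-sided exact permutation test gave p = 0.1, the smallest value that 3 against 3 libraries allow. Over the clones it was 14.02 ± 4.23% in the GFP-negative and 29.1 ± 10.1% in the GFP-positive libraries (SD, n = 8 each). The difference of 15.0 percentage points had p = 0.00154, the smallest of 1296 exact rearrangements of libraries within clones (0.00617 after Benjamini-Hochberg adjustment over 4 share tests). In the GFP-positive fraction of C50 the a4 share reached 44.0 ± 3.33% (SD, n = 2).

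The B1 share was 34.4 ± 4.99% without and 35.1 ± 5.23% with dDAVP in WT cells (SD, n = 3 each; exact permutation p = 0.9). Over the clones it was 36.0 ± 8.85% in the GFP-negative and 47.6 ± 6.62% in the GFP-positive libraries (SD, n = 8 each; exact permutation p = 0.0170, adjusted 0.0340). The B1 call was lost without any 1 of 5 libraries: GFP-negative replicate 1 or GFP-positive replicate 2 of C43 (adjusted exact permutation p = 0.123 each), GFP-negative replicate 2 (0.0864) or GFP-positive replicate 2 (0.0833) of C11, and GFP-negative replicate 1 of C50 (0.0556). For the C and d subunits the intercalated cell form was a trace beside its partner. Atp6v1c2 made up at most 0.41% of its pair with Atp6v1c1, and Atp6v0d2 at most 0.33% of its pair with Atp6v0d1, as group means.

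**Figure D3:**
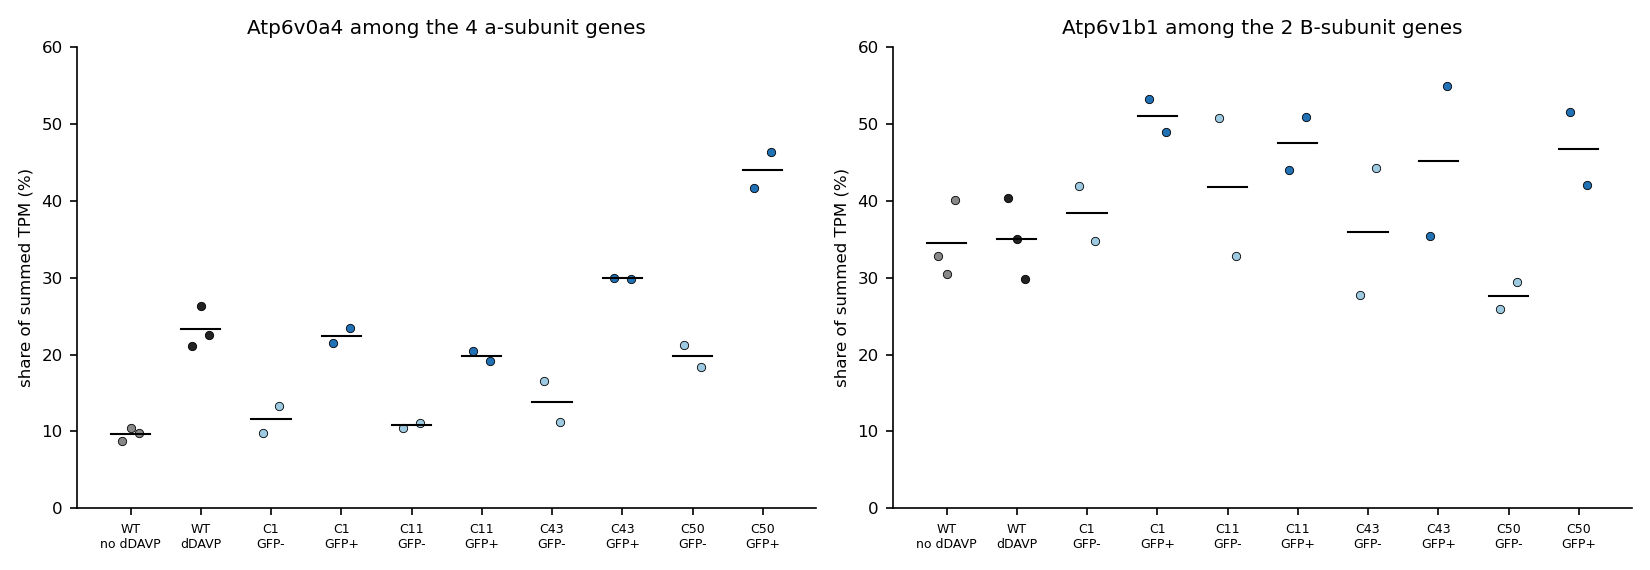
Share (vertical axes, percent of summed TPM) of Atp6v0a4 among the 4 genes for the a subunit (left) and of Atp6v1b1 among the 2 genes for the B subunit (right), by sample group. Points are libraries and bars group means. The a4 share is 9.66% in WT cells without dDAVP, 23.3% with dDAVP and 44.0% in the GFP-positive fraction of C50.

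Of 21 other V-ATPase and accessory genes, 19 had a mean of at least 1 TPM in all groups, and Atp6v1e2 and Atp6v1g3 were under 1 TPM in every group. With dDAVP, 1 of the 19 passed limma's test, against 8.88% of all genes: Atp6v0d1, the widely expressed d subunit, was higher by 0.42 on the log2 scale (adjusted p = 0.0368). That count was 0 without any 1 of 5 WT libraries and 2 without dDAVP replicate 2. Between the GFP fractions 4 of the 19 passed, against 35.3% of all genes, and 3 to 8 passed without single libraries, with 8 without GFP-negative replicate 1 of C50. Atp6v0d1 (0.54, adjusted p = 3.7e-05), the catalytic A subunit gene Atp6v1a (0.39, adjusted p = 0.0157) and the accessory gene Atp6ap2 (0.22, adjusted p = 0.0330) were higher in the GFP-positive fraction, and the stalk subunit gene Atp6v1g1 was lower (-0.31, adjusted p = 0.00438, limma). With the libraries scaled to a common median ratio, 6 were higher and none was lower, and after quantile normalisation 6 were higher and 2 lower. The median log2 difference of the 19 genes between fractions was -0.06, the same as the -0.06 of all genes, while that of the 5 tested markers was 0.66. The direct partners of a4 and B1 did not pass between the pooled fractions: the log2 differences were -0.06 for Atp6v0a1, -0.23 for Atp6v0a2, -0.07 for Tcirg1 and 0.11 for Atp6v1b2. Within C50, 6 of the 19 genes passed, against 26.6% of all genes, and Atp6v1b2 was among the 4 higher ones (0.45, adjusted p = 0.0184, limma). Its log2 difference there was smaller than the 1.62 of Atp6v1b1, a contrast that was not tested.

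Car2 encodes the cytosolic carbonic anhydrase that supplies protons to the pump, and it is present in both principal and intercalated cells. In WT cells its libraries were at 247, 225 and 246 TPM without dDAVP and at 227, 224 and 244 TPM with dDAVP. The groups overlapped, and the log2 difference was -0.05, with a 95% interval from -0.21 to 0.12 (limma, adjusted p = 0.668). In clone C1 the GFP-negative libraries were at 198 and 171 TPM and the GFP-positive libraries at 213 and 232 TPM. In C11 the values were 238 and 241 TPM against 379 and 407 TPM, and in C43 they were 256 and 269.9 TPM against 441 and 529 TPM. Clone C50 gave 179.5 and 201 TPM against 345 and 313 TPM. As for Atp6v0a4, the GFP-positive libraries lay above the GFP-negative libraries of their own clone in all 4 clones, which was so for 6.72% of the genes tested.

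Pooled over clones, Car2 was higher in the GFP-positive fraction by 0.66 on the log2 scale (SE 0.08; limma, adjusted p = 2.6e-05), with means of 219 and 357 TPM. It passed within C11 (0.71, adjusted p = 0.00378), C43 (0.88, adjusted p = 0.000484) and C50 (0.79, adjusted p = 0.000618). In C1 the difference was 0.27 (limma, adjusted p = 0.218). The interaction of fraction and clone did not pass (adjusted p = 0.251), but it did without GFP-negative replicate 2 of C50 (adjusted p = 0.0218). Within C1, 1 of 5 markers passed, against 7.22% of all genes (2.31% as higher). The counts were 1 of 5 in C11 against 7.94% (2.23% as higher), 2 of 5 in C43 against 16.3% (4.29% as higher) and 3 of 5 in C50 against 26.6% (12.8% as higher). Under median-ratio scaling the genes that passed as higher went from 293 to 485 in C11, from 562 to 1034 in C43 and from 303 to 454 in C1, so those shares depend on the scaling. Every marker that passed within a clone was higher in the GFP-positive fraction.

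Car12, a membrane-bound carbonic anhydrase, was low but above 1 TPM in every group. In WT cells it was at 4.63, 3.50 and 3.78 TPM without dDAVP and at 5.24, 6.20 and 6.37 TPM with dDAVP. The groups did not overlap, as for 35.8% of the genes tested in either direction and 7.12% with every dDAVP library higher. The log2 difference of 0.48 missed the threshold (limma, adjusted p = 0.0937) and passed when libraries were scaled to a common median ratio (0.63, adjusted p = 0.0345) or quantile-normalised (0.66, adjusted p = 0.0274). Between the pooled GFP fractions the difference was -0.07 (limma, adjusted p = 0.871). The GFP-negative libraries of C50 were far apart at 1.01 and 9.15 TPM, the first being the library with the high ribosomal protein share. Without replicate 1 the C50 difference was -1.16 (adjusted p = 0.0385), and without replicate 2 it was 1.18 (adjusted p = 0.0181), so its direction rested on a single library.

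Car15, a membrane-anchored carbonic anhydrase, ranged from 2.62 to 8.57 TPM over the 22 libraries. In WT cells it was at 6.04, 3.97 and 4.86 TPM without dDAVP and at 5.93, 5.98 and 5.69 TPM with dDAVP, with overlap (log2 difference 0.22; limma, adjusted p = 0.396). Between the pooled fractions the difference was 0.04 (limma, adjusted p = 0.912). The clones went in different directions. In C1 the GFP-negative libraries were at 4.26 and 2.80 TPM and the GFP-positive libraries at 6.89 and 5.51 TPM, while in C43 they were at 5.95 and 7.17 TPM against 2.62 and 4.02 TPM. Neither passed limma's test (0.68, adjusted p = 0.192 and -0.82, adjusted p = 0.0663), nor did the interaction of fraction and clone (adjusted p = 0.266). Without GFP-negative replicate 2 of C50 the interaction passed (adjusted p = 0.0458). Without either one of the GFP-negative libraries of C50, the C43 difference also passed (adjusted p = 0.0419 and 0.0402), as it did with detected genes as a covariate (-0.83, adjusted p = 0.0391).

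Of 13 other carbonic anhydrase genes, only the mitochondrial form Car5b had a mean of at least 1 TPM in all groups, and 9 were under 1 TPM in every group. Between the GFP fractions both genes of this list that could be tested were higher in the GFP-positive libraries: Car5b by 0.95 (limma, adjusted p = 0.000217) and the cytosolic form Car13 by 0.36 (adjusted p = 0.0388), the latter at means of only 1.04 and 1.63 TPM. Only 1 of the pair passed in 10 of 16 fits that left out a single library, and 35.3% of all genes passed in this comparison. None of the 3 tested with dDAVP in WT cells passed limma's test, and the lowest unadjusted p was 0.168, for Car11.

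Rhcg encodes an ammonia channel of intercalated and principal cells. WT cells without dDAVP had 89.1, 97.2 and 79.1 TPM, and WT cells with dDAVP had 86.4, 110.8 and 93.1 TPM. The groups overlapped, with a log2 difference of 0.12 and a 95% interval from -0.15 to 0.40 (limma, adjusted p = 0.487). The 16 clone libraries lay between 0 and 2.04 TPM, with a median of 0.54 TPM. The lowest WT library was therefore 38.8 times the highest clone library, and the mean of the WT dDAVP libraries was 126 times the mean of the clone libraries, which had dDAVP too. Among 8191 genes at 10 TPM or more in all WT libraries, Rhcg was the only gene at over 10 times its level in every clone library, a share of 0.0122%. That filter used only the WT libraries, where Rhcg was high, and genes higher in the clones were not counted. Across 13243 genes with a mean of at least 1 TPM, 9 (0.068%) had every WT library above every clone library. This contrast was singled out after its values were seen and was not tested, and the clone, the reporter and sorting cannot be told apart in it. Within the clones Rhcg was at 1.71 and 2.04 TPM in the GFP-positive fraction of C50 and at 1.32 and 1.70 TPM in that of C11, while C1 and C43 stayed at 0.53 TPM or less in both fractions. The mean over the clone libraries was 0.769 TPM, under the limit for testing.

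**Figure D4:**
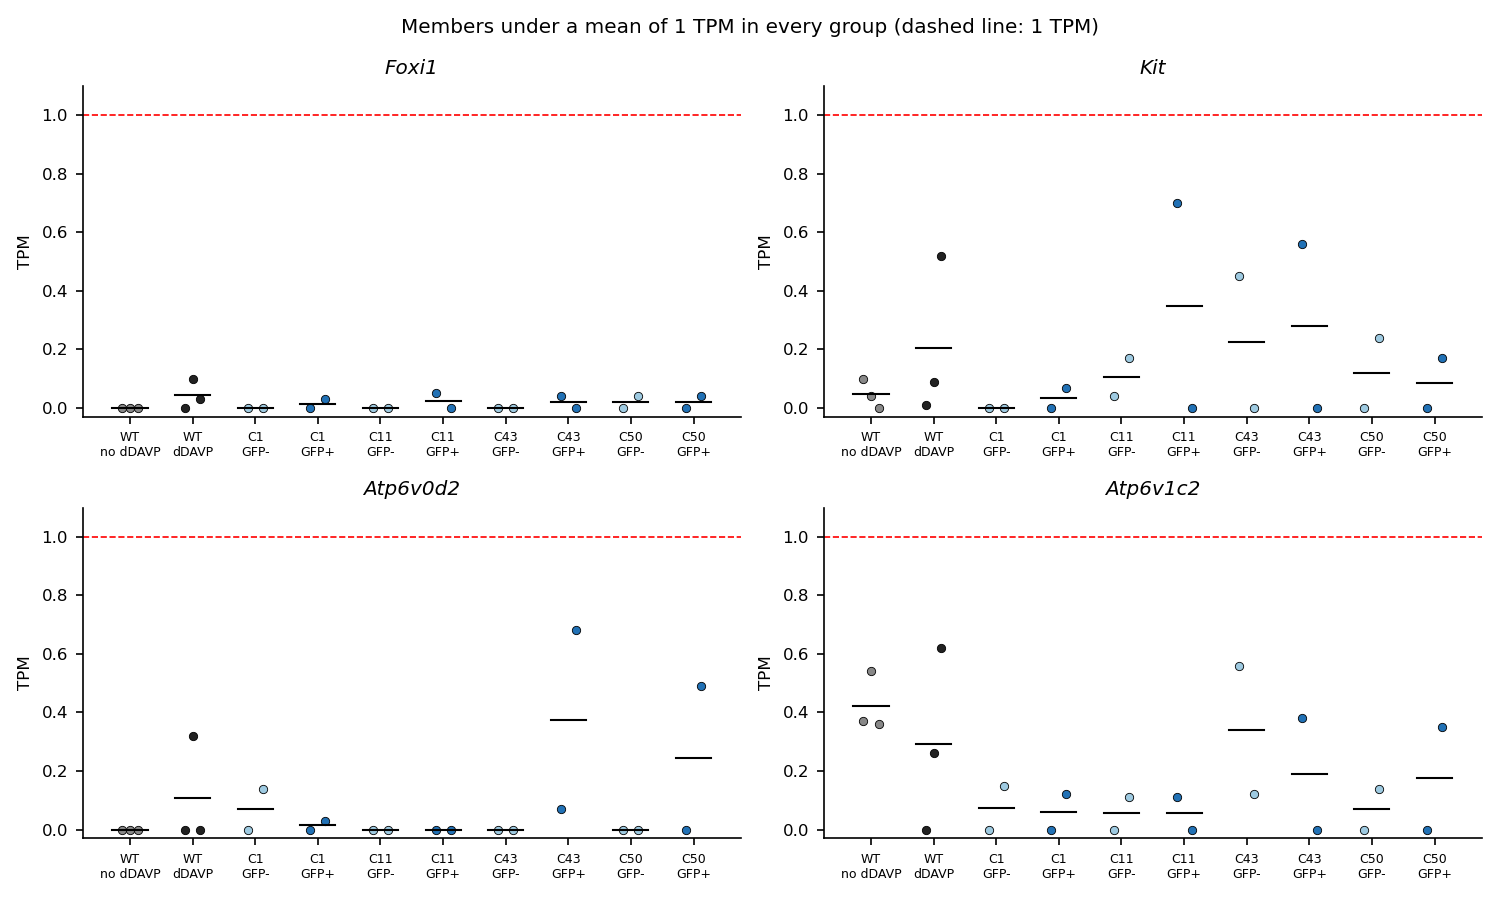
TPM (vertical axes, linear) of the 4 markers that were not expressed in any group, by sample group. Points are libraries, bars are group means and the dashed line is the 1 TPM limit. No library reaches the line, and Foxi1 stays at 0.1 TPM or less throughout.

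Foxi1 was at 0 in 15 of 22 libraries and reached at most 0.1 TPM, in a WT library with dDAVP. Kit, a receptor tyrosine kinase found on intercalated cells, was at 0 in 9 libraries and at most at 0.70 TPM. Atp6v0d2, the restricted d subunit, was at 0 in 16 libraries with a maximum of 0.68 TPM, and Atp6v1c2, the restricted C subunit, was at 0 in 8 libraries with a maximum of 0.62 TPM. For Kit, Foxi1 and Atp6v1c2, zeros moved with the number of genes detected per library. Kit was at 0 in the 9 libraries with 17177 to 20014 detected genes and above 0 in the 13 libraries with 20250 to 31292. The 7 libraries with any Foxi1 had 24837 or more detected genes, and Atp6v1c2 was at 0 only in libraries with 23135 or fewer. Atp6v0d2 did not follow it as closely, being at 0 in libraries with 17177 to 31102 detected genes and above 0 in libraries with 19431 to 31292. The part of detection in these low levels was not tested. None of the 4 genes entered the main tests, because their means were under 1 TPM, so no difference between groups is stated for them. They entered only the alternative with every gene above 0 TPM in the test.

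Ordered by group mean, Atp6v1b1 ran from 23.4 TPM in the GFP-negative fraction of C50 to 103 TPM in the GFP-positive fraction of C1. The libraries of neighbouring groups overlapped in 7 of 9 steps of that order. The exceptions were the step below the highest group and the step above the lowest. Atp6v0a4 ran from 15.5 TPM in WT cells without dDAVP to 92.5 TPM in the GFP-positive fraction of C50, and 6 of 9 steps overlapped. The 5 highest groups for this gene were the 4 GFP-positive fractions and WT cells with dDAVP, and the lowest of them, C11 at 33.0 TPM, did not overlap with the next, the GFP-negative fraction of C50 at 25.4 TPM. For Car2, 5 of 9 steps were free of overlap, and both WT groups (239 ± 12.1 and 232 ± 10.8 TPM, SD, n = 3 each) lay in mid-order beside the GFP-negative fraction of C11 at 239 TPM. For Car12, 8 of 9 steps overlapped, and for Car15 all 9 did. For Rhcg, 6 of 9 steps overlapped, and the groups on either side of the step from WT cells to the clones did not.

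The clones also differed from each other when both fractions were averaged. In limma's test for any difference between clones, 2 of 5 markers passed, Car2 (adjusted p = 0.000108) and Atp6v0a4 (adjusted p = 0.00548), against 31.6% of all genes. Car2 was lower in C1 than in the mean of the other 3 clones by 0.57 on the log2 scale (a difference of -0.57, adjusted p = 8.8e-05) and higher in C43 (0.51, adjusted p = 0.000574). Atp6v0a4 was higher in C50 (0.75, adjusted p = 0.00349). Car12 did not pass the test for any difference between clones (adjusted p = 0.166), but it did without either one of the GFP-negative libraries of C50, which lay far apart for this gene (adjusted p = 0.00756 without replicate 1, the library with the high ribosomal protein share, and 0.000970 without replicate 2). In these contrasts 2 of 5 markers passed in C1, against 29.1% of all genes, and 1 of 5 in each of C11 (9.02%), C43 (11.0%) and C50 (11.8%). The remaining calls, Atp6v1b1 higher in C1 (0.67, adjusted p = 0.0471) and Atp6v0a4 lower in C11 (-0.48, adjusted p = 0.0432), were each lost in 12 of 16 fits that left out a single library, with adjusted p up to 0.165 and 0.188. Without GFP-negative replicate 1 of C50 the first was 0.63 (adjusted p = 0.0524). Without that library, 3 contrasts passed that otherwise did not: Car12 higher in C1 (0.69, adjusted p = 0.00846), Car12 lower in C11 (-0.78, adjusted p = 0.0111) and Car2 higher in C11 (0.21, adjusted p = 0.0375). Without GFP-negative replicate 2 of C50, Car12 was higher in C1 (1.08, adjusted p = 0.000503) and lower in C50 (-0.95, adjusted p = 0.00330), and Car2 was higher in C11 (0.24, adjusted p = 0.0136) and lower in C50 (-0.21, adjusted p = 0.0346). Car2 was also higher in C11 without GFP-positive replicate 2 of C43 (0.25, adjusted p = 0.0317). Car12 in C1 also passed under both rescalings and with a covariate for detected genes (adjusted p = 0.0388, 0.0331 and 0.0216).

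Beyond the 10 markers, 19 further genes of intercalated cells were examined. The chloride-bicarbonate exchangers that define the acid-secreting and base-secreting cells, Slc4a1 and Slc26a4, reached at most 0.48 and 0.34 TPM in any library. Atp6v1g3, the G subunit form typical of intercalated cells, was at 0 in 21 of 22 libraries. Over the group means the transporter gene Slc4a9 ran from 0.46 to 8.50 TPM and the ammonia transporter gene Rhbg from 0.70 to 3.18 TPM. Neither passed between the pooled GFP fractions (0.38, adjusted p = 0.201 and 0.41, adjusted p = 0.182, limma). In all, 11 of the 19 were under 1 TPM in every group, and Slc4a8, Dmrt2, Bsnd and Jag1 were at or above it in every group. With dDAVP 2 of 7 tested genes passed limma's test, against 8.88% of all genes: the proton pump gene Atp4a was higher (1.12, adjusted p = 0.0490, at 0.797 and 2.86 TPM) and the Notch ligand gene Jag1 was lower (-0.87, adjusted p = 0.0108). Atp4a entered the test through the dDAVP libraries, since its mean without dDAVP was under 1 TPM. It did not pass after either rescaling of the libraries. Without single WT libraries the count ran from 0 to 2 and was lower in 5 of 6 fits, with 0 without replicate 2 of the cells without dDAVP. Between the GFP fractions 1 of 8 tested passed, against 35.3% of all genes, the anion and water channel gene Aqp6, which was higher (0.53, adjusted p = 0.0264) at 1.68 and 3.21 TPM. That count ran from 0 to 2 without single libraries and changed in 6 of 16 fits. Within C43, 2 of 8 tested genes passed, against 16.3% of all genes. Atp4a was higher (1.28 and 5.16 TPM) and Bsnd was lower (21.4 and 4.25 TPM) in the GFP-positive fraction. Within C50, 1 of 8 passed, against 26.6%, with Slc4a9 higher (2.42 and 8.50 TPM). Within C1 and C11, 0 of 8 passed, against 7.22% and 7.94%. The interaction of fraction and clone passed for 1 of 8, against 0.869% of all genes.

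Among 10 genes that regulate collecting duct cell fate, the forkhead genes Foxi2 and Foxi3 were under 1 TPM in every group, like Foxi1. Between the fractions 3 of 7 tested genes of this list passed, against 35.3% of all genes, all higher in the GFP-positive libraries: Gata3 (0.91, adjusted p = 1.7e-05), Tfcp2l1 (0.71, adjusted p = 0.00754) and the Notch target Hes1 (0.39, adjusted p = 0.000792, limma). Of the principal cell genes, 7 of 9 tested passed in the same comparison with its 35.3% of all genes, 6 of them higher. The higher ones were Aqp2 (3.11), Avpr2 (1.16), the Na,K-ATPase regulator Fxyd4 (1.94), the sodium channel gene Scnn1g (1.14), the mineralocorticoid receptor gene Nr3c2 (0.76) and the glucocorticoid-inactivating enzyme gene Hsd11b2 (0.71). The basolateral water channel gene Aqp3 was lower (-0.64, adjusted p = 0.0195), from a mean of 2.21 TPM in the GFP-negative libraries to one under 1 TPM in the GFP-positive libraries, so it entered the test through the fraction where it was high. With dDAVP 5 of 9 principal cell genes passed, against 8.88% of all genes, with Aqp2, Avpr2 and Fxyd4 higher and the sodium channel genes Scnn1a and Scnn1g lower. Genes of other cell types were mostly near 0. The 5 fibroblast genes summed to at most 1.42 TPM in any library. Of 5 proximal tubule genes only the endocytic receptor gene Lrp2 reached 1 TPM, with sums of 0.94 to 13.1 TPM in the GFP-negative and 3.90 to 16.2 TPM in the GFP-positive libraries, and it was higher in the GFP-positive fraction (0.56, adjusted p = 0.00525, limma). Of 5 mast cell and blood genes only the globin gene Hba-a1 reached 1 TPM as a group mean, in both fractions of C43, where the sum ran from 2.00 to 7.96 TPM, and it was also higher in the GFP-positive fraction (0.60, adjusted p = 0.0114), at means of 0.604 and 1.99 TPM, so it entered the test through the fraction where it was high. The mast cell gene Fcer1a was at 0 in every library. The 5 myeloid and osteoclast genes summed to 12.2 to 22.04 TPM in the GFP-negative and 8.80 to 14.5 TPM in the GFP-positive libraries, and the only one tested, Csf1r, was lower in the GFP-positive fraction (-0.57, adjusted p = 0.00111). The 6 thick limb and distal tubule genes summed to at most 2.97 TPM. The part of such cells in the marker differences was not tested.

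Genes whose group means followed a marker most closely were ranked by Pearson correlation over the 10 group means among 11234 genes, as a description. The points are not independent: all are TPM, both fractions of a clone come from the same line, and only the clone groups were sorted. For Atp6v0a4 the highest were Slc39a14 and Prdx5 (r = 0.92 each) and Cab39l (0.91). For Atp6v1b1 they were Myo6 and Sptbn1 (r = 0.99 each) and Rfx7 (0.97), and for Car2 Irak4 and Pyurf (r = 0.98 each) and B4galt1 (0.97). Car12 was most like Mgst1 (r = 0.95), Sftpd (0.94) and Sgk2 (0.92), and Car15 most like Sfxn5 (r = 0.84), Rps12-ps9 and Cish (0.77 each). Rhcg was followed by the microRNA gene entries Mir1982 and Mir1897 (r = 0.98 each) and Mirlet7i (0.96), a ranking set by the split between the 2 WT groups and the 8 clone groups. Among the 15 pairs of markers, which were not picked for likeness, the highest values were r = 0.49 for Atp6v1b1 with Atp6v0a4 and 0.48 for Atp6v0a4 with Car2.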

How the data were processed

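RNA was measured in 22 libraries of mpkCCD cells, with paired-end sequencing of cDNA made with the SMART-Seq HT and Nextera XT kits, per the labels' protocols. The tools named are STAR and RSEM, per the submitters' processing notes; the genome build and annotation are not given in the sources used here. The authors deposited TPM per gene and library, with their own group means, which equal the means of the libraries to within 0.006 TPM, and the ratio of group means within each pair of groups. A further column, 1 in number, was not used. Lines that share a symbol were summed, which left 54514 entries. Depth is unknown because TPM keep none, so no counting interval or detection floor is given.

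Groups came from the sample labels. Differences were tested in R 4.3.3 (limma 3.58.1, statmod 1.5.0) on log2(TPM + 1), a pseudocount of 1 that understates changes of low genes, for genes with a mean of at least 1 TPM in the libraries of the comparison, two-sided, with a mean-variance trend and Benjamini-Hochberg adjustment over all genes tested. The threshold was an adjusted p of 0.05. WT libraries (6) and clone libraries (16) were fitted apart; the pooled GFP fit had clone as a covariate, and clone-wise, interaction and clone tests used a mean per clone and fraction with a shared spread. The script was tested on simulated data. Isoform shares were tested by exact permutation. Named genes were the 10 markers, the alternative forms of their subunits, listed genes that passed in the dDAVP or pooled GFP comparison, defining transport genes, and the 3 genes most like each marker; other named genes were chosen after their values were seen. The markers and gene lists were chosen with earlier results of these data known. Promoters were taken from RefSeq (GRCm38.p6) by symbol; 8 of 10 markers matched. Alternatives were another pseudocount, 2 other filters, 2 other scalings, 2 other moderations, the replicate number as a block, genes detected per library as a covariate, a minimum change, clone means, and leaving out each library or clone. The levels and isoform shares without single libraries were added after seeing the data.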

Additional observations from a re-analysis of the deposited data

Results flagged for a closer look

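The mean TPM of Car15 differed between the fractions in opposite directions in 2 clones. The ratio of its mean TPM in the GFP-positive to that in the GFP-negative fraction was 1.76 in clone C1, where both GFP-positive libraries lay above both GFP-negative libraries, and 0.506 in clone C43, where both lay below. Neither difference passed on its own (limma, adjusted p = 0.192 in C1 and 0.0663 in C43). The test of whether the difference varies between clones did not pass (limma, adjusted p = 0.266). In C11 and C50 the ratios were 1.09 and 1.20, and the fractions overlapped. The C50 libraries were at 6.35 and 4.94 TPM in the GFP-negative and at 8.57 and 4.94 TPM in the GFP-positive fraction.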

How the results depend on the processing

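Atp6v0a4 with dDAVP passed in all 15 alternatives tried for it (limma adjusted p from 0.00259 to 0.0349). Atp6v0a4 and Car2 between the pooled GFP fractions each passed in all 30 of theirs, and Atp6v1b1 in 29, failing without clone C50; a minimum change was counted apart. Of the counts of markers that passed, that for dDAVP went from 1 to 2 under median-ratio scaling and quantile normalization. The pooled GFP count went from 3 to 1 with a minimum log2 change of 1. The C1 count went from 1 to 0 with every gene above 0 TPM in the test, and the C11 count from 1 to 2 under both scalings and with detected genes as a covariate. Among clone contrasts, C1 went from 2 to 1 and C11 from 1 to 0 with every gene above 0 TPM and with no trend, and C11 to 2 under quantile normalization. The cause was not tested.

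Leaving out single libraries gave 1 in all 6 fits for dDAVP and 3 in all 16 for the pooled fractions (2 without clone C50), 0 to 1 in C1, 1 to 2 in C11, 1 to 3 in C43, 2 to 4 in C50 and 0 to 3 for the interaction. It gave 2 to 3 for differences between clones, 1 to 3 for C1 against the others, 0 to 3 for C11, 1 in all fits for C43 and 1 to 3 for C50. Of the 100 values by marker and group, 54 to 55 stayed at 1 TPM or more, against 55. Without GFP-negative replicate 1 of C50, the Car12 difference in C50 reversed to -1.16, and without replicate 2 it was 1.18.

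Replicate numbers recur across groups. Same-numbered libraries deviated together only weakly or not at all (WT correlations -0.21, -0.03 and -0.11, clone correlations 0.02 to 0.20). These values do not settle whether such libraries shared a culture. Detected genes were alike in same-numbered GFP-negative and GFP-positive libraries of C43 (30855 and 29973, then 19002 and 19556). The same held in C50 (17677 and 18510, then 30045 and 27879). It did not hold in C11 (23135 and 29971, then 29857 and 18616), and C1 had 17177 and 18626, then 19431 and 24837. When replicate number entered as a block, the marker counts were 1 for dDAVP and 3 for the pooled fractions, as without it, 3 in C43 through Car15 (adjusted p = 0.0476), 1 for C1 and 0 for C11 in the clone contrasts, and it changed no other marker call. The number of all genes passing with dDAVP went from 1198 to 122 with the block, to 442 with every gene above 0 TPM, 757 under median-ratio scaling, 691 with no trend, 2694 with detected genes as a covariate and 129 with a minimum change. Without single libraries it ran from 314 to 2038 with dDAVP, 377 to 2094 in C1, 318 to 2331 in C11, 858 to 3891 in C43, 1793 to 6820 in C50, 4170 to 6043 for the pooled fractions, 42 to 5038 for the interaction and 2857 to 7947 for differences between clones. Against the other clones it ran from 2508 to 5734 for C1, 511 to 3797 for C11, 748 to 3571 for C43 and 756 to 5342 for C50, so the shares of all genes set beside the marker counts move with single libraries. With every gene above 0 TPM it went from 947 to 609 in C1, 1041 to 607 in C11, 2134 to 1346 in C43 and 3486 to 2291 in C50, and from 1183 to 755 and 1541 to 975 for C11 and C50 against the other clones. With the block it was 615 in C1 and 564 in C11. For the pooled fractions it went from 4626 to 2406 with clone means and 539 with a minimum change, and for the interaction from 114 to 11 with the block and 234 under quantile normalization. Median-ratio scaling moved the share of higher among passing genes from 26.7% to 59.6% for dDAVP and from 34.2% to 50.9% for the pooled fractions, from 32.0% to 46.1% in C1, 28.1% to 48.7% in C11 and 26.3% to 50.1% in C43, and from 62.8% to 50.3% for C11 against the other clones (33.2% to 46.3% for C50 under quantile normalization). For dDAVP and the pooled fractions, this scaling moved the medians of all genes from -0.16 to 0.00 and from -0.06 to 0.01. The medians of the tested markers were 0.17 and 0.33 for dDAVP and 0.66 and 0.74 for the fractions.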
